A study of Homo sapiens with 2 samples.

Results

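The OAS, MX and RSAD2 genes, a group of interferon-induced antiviral effectors, were examined in SUB1 knockdown PC3 cells. The members were taken by name, as every gene probe on the arrays annotated to OAS1, OAS2, OAS3, OASL, MX1, MX2 or RSAD2, which gave 11 probes for 7 genes. All 11 probes were well above background in both channels on both arrays, so all 7 genes were among the 19218 genes that passed the filter on dim probes. PC3 is an established human prostate cancer cell line derived from a metastasis. Expression was measured on 2 dual-colour Agilent whole human genome arrays of 1 slide. The Cy3 channel of each array held total RNA of cells transfected with non-targeting (Non-T) siRNA, and the Cy5 channel that of cells transfected with a duplex against SUB1, a transcriptional coactivator. One array carried SUB1 siRNA 1 and the other SUB1 siRNA 2. All cells, controls included, were transfected a second time with the same duplex and collected 72 h after the first transfection. The labels do not say whether both arrays carried the same Non-T RNA.

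Each siRNA thus had 1 array and no replicate, and the effects of the siRNA sequence, the culture and the array cannot be told apart. There was no dye swap, so that dye and treatment cannot be told apart either. In RNA from a whole culture, more cells expressing a gene and more RNA per cell cannot be told apart. Between 54.3% and 67.2% of the gene spots passed as well above background in a channel, and none was saturated. Precision is limited by the number of arrays. All ratios are log2 of SUB1 siRNA (Cy5) over Non-T siRNA (Cy3). They were computed from background-corrected spot intensities, with loess to remove the trend with brightness on each array, and a gene was represented by its brightest probe. The targeted gene, SUB1, was at -3.30 with the first duplex and at -3.26 with the second. All 7 epithelial and mesenchymal markers listed for PC3 cells were detected, whereas PTPRC, the common leukocyte antigen, was not above background. Of the 9 immune cell markers listed, 4 passed the filter (CD3E, CD14, CD68 and ITGAM), and their log2 ratios lay between -0.29 and 0.098 with siRNA 1, and with siRNA 2 they lay between 0.085 and 0.58. Their part in the values below was not tested.

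Type I interferons signal through their receptors, JAK kinases and a transcription complex that includes STAT2 and IRF9 and binds the interferon-stimulated response element (ISRE) of target genes. The members are classical targets of this pathway. The OAS enzymes are activated by double-stranded RNA and make 2′-5′-linked oligoadenylates, a second messenger of antiviral RNA decay, and OASL is a relative without this synthetase activity. MX1 and MX2 are dynamin-like GTPases that block the replication of different viruses, and RSAD2 encodes viperin, a radical SAM enzyme that makes a chain-terminating nucleotide.

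The promoters of the members are shown first, since the interferon pathway acts through them. RefSeq promoter windows (GRCh38.p14, 250 bases before to 50 after the start) were given for 4 of the 7 members, OAS1, OAS3, MX1 and RSAD2. Each window was searched on both strands for an ISRE core, spelled GAAA, any 2 bases and GAAA. The stretch of OAS3 before its start (chr12:112938316-112938473, plus strand) holds both of its ISRE core matches, in capitals, and the 30 bases of MX1 (chr21:41420559-41420588, plus strand) hold its single match, which lies after the start.
OAS3: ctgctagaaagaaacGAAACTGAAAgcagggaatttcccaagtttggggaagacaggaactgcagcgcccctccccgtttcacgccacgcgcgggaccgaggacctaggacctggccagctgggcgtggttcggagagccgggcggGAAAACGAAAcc
MX1: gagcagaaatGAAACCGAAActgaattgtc

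The matches of OAS3 lie at positions -143 to -134 and -12 to -3 from the start, and that of MX1 at 12 to 21. OAS1 and RSAD2 had no match to the ISRE core in these windows. The 120 bases before the start of RSAD2 (chr2:6865765-6865884, plus strand) are shown because they repeat a like motif with a spacer shorter by a base, GAAANGAAA, in capitals. This motif was added after the sequence had been seen.
RSAD2: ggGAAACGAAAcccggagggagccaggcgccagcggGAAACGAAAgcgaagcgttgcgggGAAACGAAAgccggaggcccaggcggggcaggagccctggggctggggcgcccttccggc

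The window of RSAD2 held 4 matches to GAAANGAAA, of which 3 are in the stretch shown. OAS1 and OAS3 each had 1 match and MX1 had 2. In OAS3 and in MX1, a match overlaps an ISRE core match. The ISRE core was present in 3.65% of 27305 promoter windows and GAAANGAAA in 3.22%. Among 36 other interferon-stimulated genes listed, 32 had a window, of which 23 held the ISRE core and 9 GAAANGAAA. Neither motif was found in the windows of 7 dynamin relatives of MX1 and MX2. The same held for 7 windows among the 8 genes listed with RSAD2. These 8 are radical SAM relatives and CMPK2, the interferon-induced neighbour of RSAD2, whose window is among the 7. A match describes the letters of the window and does not show binding.

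With siRNA 1, no member reached a 2-fold change in either direction. The background on this array was 0.208% of all genes higher by that rule and 0.609% lower. The median log2 ratio of the members was -0.024, beside 0.024 for all genes, and 3 of 7 were above 0, beside 54.1% of all genes. With siRNA 2, all 7 members were above 0, beside 53.6% of all genes, with a median of 0.61, beside 0.024. RSAD2 and OASL were at least 2-fold higher, beside 0.614% of all genes, and no member was at least 2-fold lower, beside 1.07%. The members nearest to the 2-fold rule were MX2 below it, at 0.80, and OASL above it, at 1.36.

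**Figure D1:**
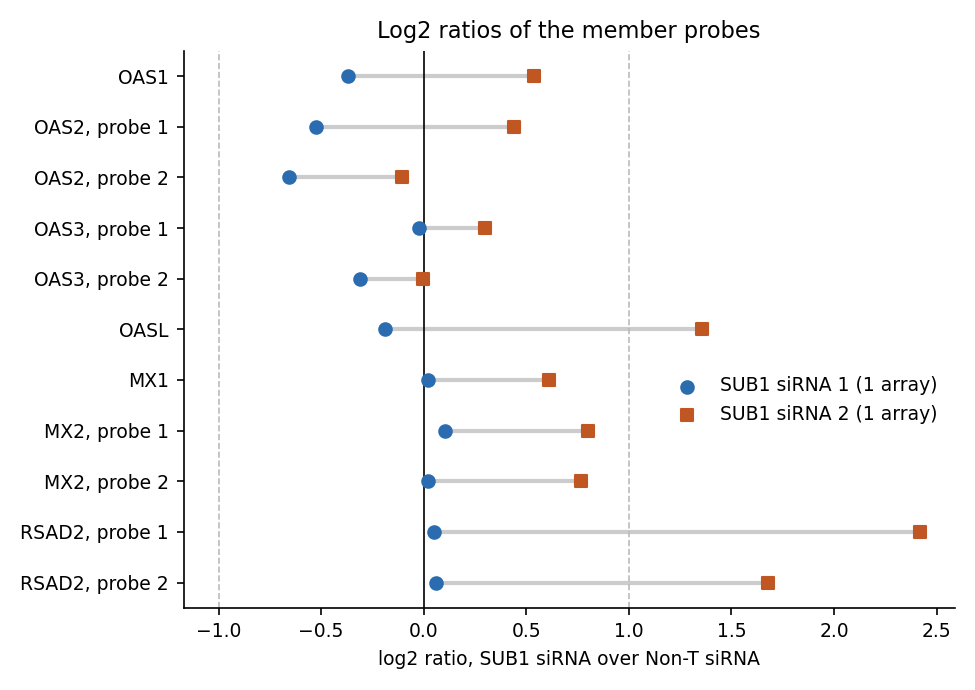
Log2 ratio over Non-T siRNA (x axis) of each of the 11 member probes (y axis, brighter probe of a gene first), with siRNA 1 as circles and siRNA 2 as squares; each point is 1 array and dashed lines mark a 2-fold change. In every row the siRNA 2 point lies to the right, and the widest gap is that of RSAD2 probe 1, from 0.051 to 2.42.

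OAS1, OAS2 and OAS3, which encode the oligoadenylate synthetases, were at or below 0 with siRNA 1 and less than 2-fold higher with siRNA 2. OAS1 has 1 probe (NM_002534, hg18 chr12:111838844-111838903). Its spot intensity was 1807 (Non-T) and 1709 (siRNA 1) on the siRNA 1 array, and 1592 (Non-T) and 2861 (siRNA 2) on the siRNA 2 array. After normalization this gave log2 ratios of -0.37 with siRNA 1 and 0.54 with siRNA 2. The dyes are not comparable before normalization. After loess and Aquantile, the log2 signals were 10.85 and 10.89 (Non-T), 10.48 (siRNA 1) and 11.43 (siRNA 2). The siRNA 1 signal thus lay below both Non-T signals and the siRNA 2 signal above them.

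OAS2 has 2 probes (NM_016817), which disagreed in sign with siRNA 2. The brighter one (hg18 chr12:111930062-111930121), annotated to transcripts NM_016817 and NM_002535, had spot intensities of 451 (Non-T) and 351 (siRNA 1) on the siRNA 1 array, and 395 (Non-T) and 614 (siRNA 2) on the siRNA 2 array. Its log2 ratios were -0.52 and 0.44. The other probe (hg18 chr12:111932984-111933043), for which the files list NM_016817 and not NM_002535, had -0.66 with siRNA 1 and -0.11 with siRNA 2. Both OAS2 probes were therefore lower than in Non-T siRNA-treated cells with siRNA 1 and had a higher ratio with siRNA 2, but only the probe shared by both transcripts was above 0.

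OAS3 (NM_006187) also has 2 probes. The brighter one (hg18 chr12:111894999-111895058) had spot intensities of 2427 (Non-T) and 2946 (siRNA 1) on the siRNA 1 array, and 2240 (Non-T) and 3434 (siRNA 2) on the siRNA 2 array, which gave log2 ratios of -0.024 and 0.30. The dimmer one (hg18 chr12:111894514-111894573) had -0.31 and -0.0014. OAS3 was the member with the smallest difference between the siRNAs, by 0.32 for the brighter and 0.31 for the dimmer probe.

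OASL (NM_003733, also annotated to NM_198213; hg18 chr12:119942703-119942762, minus strand) had the highest ratio of the OAS genes with siRNA 2. Its spot intensity was 9661 (Non-T) and 11172 (siRNA 1) on the siRNA 1 array, and 7552 (Non-T) and 26366 (siRNA 2) on the siRNA 2 array. The log2 ratio was -0.19 with siRNA 1 and 1.36 with siRNA 2, a 2.56-fold higher level, which ranked 26 of 19218 genes on the siRNA 2 array. The value with siRNA 1 is close to 0 on the scale of the processing. It was 0.15 with median centring instead of loess, under which the median over all genes was 0.13 and not 0.024, and it was 0.020 in the log2 ratios deposited by the authors.

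MX1 and MX2, which lie side by side on chromosome 21, gave close values. MX1 (NM_002462, hg18 chr21:41752884-41752943) had spot intensities of 11611 (Non-T) and 15719 (siRNA 1) on the siRNA 1 array, and 10035 (Non-T) and 20923 (siRNA 2) on the siRNA 2 array, with log2 ratios of 0.020 and 0.61. MX2 (NM_002463) had, for its brighter probe (hg18 chr21:41702371-41702430), intensities of 2532 (Non-T), 3365 (siRNA 1), 2134 (Non-T) and 4664 (siRNA 2), with log2 ratios of 0.10 and 0.80. Its dimmer probe (hg18 chr21:41700719-41700778) had 0.023 and 0.77, so that the MX2 probes were within 0.08 of each other on either array. MX1 was 1.53-fold and MX2 1.74-fold higher with siRNA 2. Both passed the 2-fold rule with siRNA 2 when arrays were centred on the median in place of loess (1.01 and 1.08), and MX2 also in the authors' log2 ratios (1.02). With centring, 266 of 19218 genes passed as higher with siRNA 2, and 148 in the authors' ratios, beside 118 for the values given in the text. The median of all genes with siRNA 2 was 0.12 with centring, beside 0.024.

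RSAD2 (NM_080657), the viperin gene, ranked 1 of 19218 genes by its log2 ratio with siRNA 2, under all settings tried but the processed signals of the scanner software, where it ranked 18 and OASL 599. The brighter probe (hg18 chr2:6954651-6954710) had spot intensities of 629 (Non-T) and 758 (siRNA 1) on the siRNA 1 array, and 517 (Non-T) and 3291 (siRNA 2) on the siRNA 2 array. Its log2 ratios were 0.051 with siRNA 1 and 2.42 with siRNA 2, a 5.34-fold higher level. The dimmer probe (hg18 chr2:6951271-6953404, which covers 2134 bases of genome where each other member probe covers 60) had intensities of 159 (Non-T), 155 (siRNA 1), 139 (Non-T) and 455 (siRNA 2), with log2 ratios of 0.059 and 1.68. Both RSAD2 probes were near 0 with siRNA 1 and at least 3-fold higher with siRNA 2, but the size differed by 0.74 between them.

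**Figure D2:**
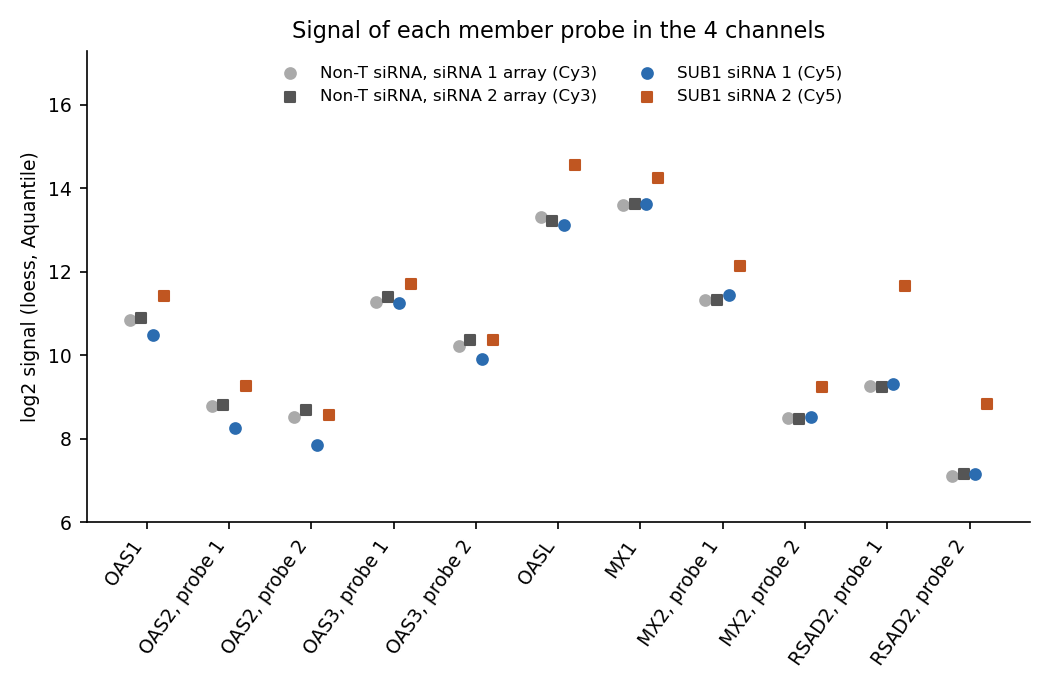
Log2 signal (y axis, after loess within and Aquantile between the arrays) of each member probe (x axis) in the 4 channels: Non-T siRNA on either array (grey, Cy3), SUB1 siRNA 1 (blue, Cy5) and SUB1 siRNA 2 (orange, Cy5). Levels are to be compared within a probe only; for RSAD2 probe 1 the Non-T signals were 9.27 and 9.23, that of siRNA 1 was 9.32 and that of siRNA 2 was 11.65.

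The direct comparison of the siRNAs took the log2 ratio with siRNA 2 minus that with siRNA 1. It was above 0 for all 7 members, beside 49.6% of all genes. The difference was 2.37 for RSAD2, 1.55 for OASL, 0.96 for OAS2, 0.91 for OAS1, 0.70 for MX2, 0.59 for MX1 and 0.32 for OAS3. RSAD2 (5.16-fold) and OASL (2.92-fold) reached a 2-fold difference, beside 0.65% of all genes. OAS2 passed the same rule with the processed signals of the scanner software (1.19), the authors' log2 ratios (1.04), median spot signals (1.03) and the Cy5 signals alone (1.00). The ranks of RSAD2 and OASL among 19218 genes were 2 and 16, and those of the other members ran from 138 (OAS2) to 2085 (OAS3). The median of the members was 0.91, beside -0.0021 for all genes.

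Since both arrays carried Non-T siRNA in Cy3, the difference can be read channel by channel. Between the arrays, the Cy3 signal of the members differed by -0.11 (OASL) to 0.13 (OAS3), whereas the SD of that difference was 0.092 to 0.108 among probes of like brightness. The Cy5 signal differed by 2.33 for RSAD2, 1.44 for OASL, 1.00 for OAS2, 0.95 for OAS1, 0.70 for MX2, 0.62 for MX1 and 0.45 for OAS3. By the brightest probe, the difference between the siRNAs thus lay mostly in the channel of the SUB1 siRNA-treated cells for each of the 7 genes. The Cy3 differences of the dimmer probes ran from -0.015 (MX2) to 0.17 (OAS2), with 0.14 for OAS3. The SD of the ratio difference among probes of like brightness was 0.35 to 0.39, so that OAS3 lay within 1 SD. This spread comes from all genes and includes real differences between the siRNAs. Each member probe has 1 spot, and over 209 probes with 10 or more spots the median SD among spots was 0.078 (siRNA 1) and 0.074 (siRNA 2). None of these spreads includes differences between cultures treated alike.

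**Figure D3:**
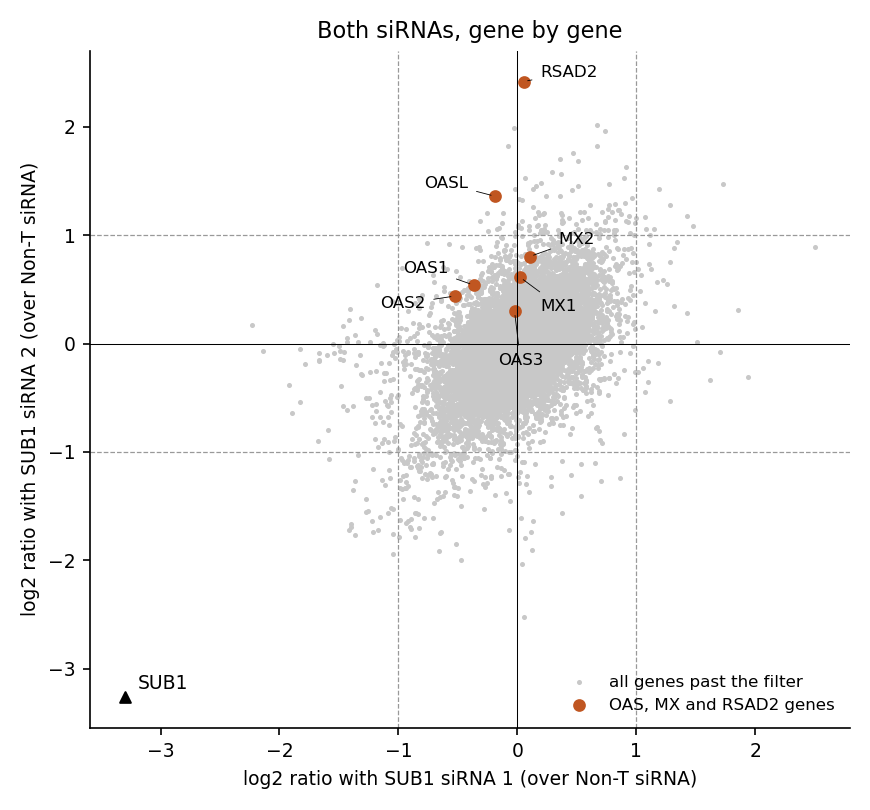
Log2 ratio with SUB1 siRNA 1 (x axis) against SUB1 siRNA 2 (y axis), both over Non-T siRNA, for the 19218 genes (grey), the 7 members (orange) and SUB1 (triangle); dashed lines mark a 2-fold change. The members lie within a narrow range with siRNA 1, from -0.52 to 0.10, and spread upward with siRNA 2, from 0.30 to 2.42; the arrays may share their control RNA, so the overall shape of the cloud is not a result.

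With the siRNAs taken as 2 knockdowns of SUB1, no member passed the test over both arrays. The mean log2 ratio over both siRNAs was 1.23 (SE 0.567) for RSAD2, 0.59 (SE 0.377) for OASL, 0.45 (SE 0.190) for MX2 and 0.32 (SE 0.169) for MX1. It was 0.14 (SE 0.121) for OAS3, 0.086 (SE 0.234) for OAS1 and -0.043 (SE 0.246) for OAS2. In limma's moderated test against 0, adjusted over all genes by Benjamini-Hochberg, the lowest adjusted p of a member was 0.272 (MX2), and that of RSAD2 was 0.295. SUB1 was the 1 gene that passed (adjusted p 0.0248), which is 0.0052% of the genes tested. No gene was higher at this threshold, while 4013 genes had an unadjusted p under 0.05. If both arrays carried the same Non-T RNA, which the labels do not say, the spread between control cultures does not enter this test.

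ABCE1 and PDE12, listed with the OAS enzymes, had smaller differences between the siRNAs than OASL. ABCE1, which encodes an ATP-binding cassette protein, had -0.014 with siRNA 1 and 0.028 with siRNA 2. PDE12, which encodes a phosphodiesterase that degrades 2′-5′ oligoadenylates, had 0.28 and 0.046, and neither gene was 2-fold changed.

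The structural relatives of the other members had list medians near 0, with single genes on either side. Over 7 dynamin-related genes other than MX1 and MX2, the median log2 ratio was -0.038 with siRNA 1 and -0.078 with siRNA 2, with a highest value of 0.071 on the siRNA 2 array. DNM1L, whose product divides mitochondria, had -0.038 and -0.0010, DNM2, which acts in endocytosis, had -0.068 and -0.070, and OPA1, which fuses inner mitochondrial membranes, had 0.30 and -0.26. Over 7 genes listed with RSAD2 for the radical SAM domain, the median was -0.089 with siRNA 1 and -0.10 with siRNA 2. RSAD1 had -0.81 and -0.40, and LIAS, which encodes lipoic acid synthetase, had 0.065 and -0.10. CMPK2, the interferon-induced neighbour of RSAD2, was not matched to a probe.

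The 36 other interferon-stimulated genes had medians close to those of the members on both arrays. Of these, 35 passed the filter, and their median log2 ratio was -0.028 with siRNA 1, and with siRNA 2 it was 0.67. The list was chosen with earlier results of these data known. With siRNA 1, 15 of 35 were above 0, beside 54.1% of all genes. None was 2-fold changed in either direction, beside 0.208% of all genes higher and 0.609% lower. With siRNA 2, 33 of 35 were above 0, beside 53.6%, and 9 were at least 2-fold higher, beside 0.614%. The difference between the siRNAs was above 0 for 34 of 35, beside 49.6% of all genes. The exception was IFIT5, named after the values were seen, with 0.11 and -0.29. IFIT2, an antiviral RNA-binding protein gene, had -0.028 and 1.99, and IFIT1 had -0.017 and 1.00, whereas IFIT3 had -0.52 and 0.67. ISG15, a ubiquitin-like modifier gene, had 0.67 and 1.83, IFI27 had 0.46 and 1.02, IFI6 had 0.18 and 1.19 and IFI44 had -0.43 and 0.066. The last of these differed little from Non-T siRNA-treated cells with siRNA 2, as did DDX60 (-0.67 and -0.19), which was chosen after its values were seen.

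**Figure D4:**
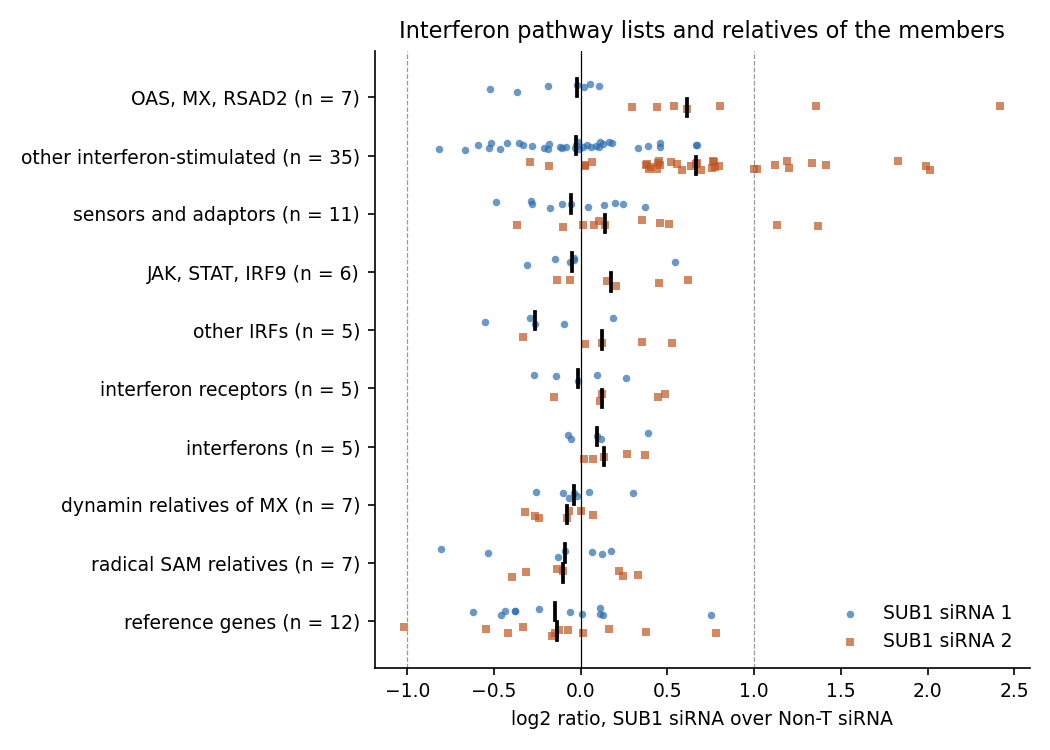
Log2 ratio over Non-T siRNA (x axis) for the genes of each list (y axis, n genes past the filter), with siRNA 1 as circles, siRNA 2 as squares and black bars for the medians; dashed lines mark a 2-fold change. The medians of the members and of the other interferon-stimulated genes were 0.61 and 0.67 with siRNA 2, and the other lists drawn had medians between -0.14 and 0.18; of the lists not drawn, the negative regulators had 0.41, the luminal prostate markers 0.22 and the epithelial and mesenchymal markers -0.19.

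Upstream of the members, the list medians were smaller. Of 20 interferon genes listed, 5 passed the filter, and their median was 0.096 with siRNA 1 and, with siRNA 2, 0.14, and none was 2-fold changed. IFNB1, IFNE and IFNL1 passed through Cy5 only on both arrays, as did IFNA4 on the siRNA 2 array. With no filter on dim probes, the median of the listed interferon genes was 0.024 with siRNA 1 and -0.058 with siRNA 2. For IFNB1, which encodes interferon beta, the bound was at least 1.03-fold with siRNA 1 and at least 1.24-fold with siRNA 2. In Cy3 it was not well above background on either array. Since IFNB1 passed the filter only through Cy5, these bounds do not show a rise. The receptor gene IFNAR1 had -0.14 and 0.11, and IFNAR2 was not above background. JAK1 had -0.061 and -0.064 and TYK2 had -0.041 and -0.14. Of the transcription complex, STAT2 had -0.31 and 0.15 and IRF9 had 0.54 and 0.62, so that IRF9 was above 0 on both arrays and STAT2 with siRNA 2 only.

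IRF1, an activator of interferon-stimulated genes, had -0.29 with siRNA 1 and 0.53 with siRNA 2. IRF7, the factor that amplifies interferon production, had -0.27 and 0.36, and IRF3, which is activated by phosphorylation, had -0.095 and -0.33. Of 13 RNA and DNA sensor and adaptor genes, 11 passed the filter, and 2 were at least 2-fold higher with siRNA 2, beside 0.614% of all genes. These were the double-stranded RNA receptor genes IFIH1 (0.24 and 1.37) and TLR3 (0.040 and 1.13). DDX58, which encodes RIG-I, had -0.49 and 0.46, and EIF2AK2, which encodes the kinase PKR, had -0.054 and 0.14. DHX58 was at least 1.05-fold higher with siRNA 1, and no bound could be given with siRNA 2, its signal in Non-T siRNA-treated cells being not well above background. DHX58 too passed the filter only through Cy5, so that its bound does not show a rise. Of the negative regulators, USP18, which removes ISG15 and restrains the receptor, had 0.077 and 0.20, and SOCS1, which inhibits JAK kinases, had 0.15 and 0.41. As reference genes, GAPDH had 0.0095 and -0.072 and ACTB had 0.75 and 0.37.

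The genes with the pair of log2 ratios nearest to that of RSAD2, by Euclidean distance over the 2 arrays among all genes, were IFIT2 (distance 0.43), IDO1 (0.61), RTP4 (0.74), GDF15 (0.78) and S100P (0.78). The nearest to the pair of medians of the members were ENST00000383620, BAG1, A_32_P133926, GGPS1 and SERTAD1, all within 0.026. With 2 arrays, this likeness rests on 2 values per gene.

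Genes next to the members on the chromosome were nearer to 0 with siRNA 2 at the median. In the RefSeq table, OAS1, OAS3 and OAS2 follow each other on chromosome 12, with OASL elsewhere on the same chromosome. Taking 3 protein-coding genes on each side of every member, a rule chosen after the values were seen, gave 24 genes other than members, of which 14 were measured. Their median log2 ratio was 0.022 with siRNA 1 and 0.087 with siRNA 2, with a range of -0.53 to 0.53 on the siRNA 2 array, and none was at least 2-fold higher. Among the 296 measured genes whose promoter window held the ISRE core, the median with siRNA 2 was 0.11 and 12 were at least 2-fold higher. Among 10216 measured genes whose window did not hold it, the median was 0.010 and 57 were at least 2-fold higher. The 296 include 2 members and 23 of the other interferon-stimulated genes, of which 5 are among the 12. Within that list, the median with siRNA 2 was 0.59 with the core and 0.71 for the 8 genes without it. Of these 8, 2 were at least 2-fold higher. For the members it was 0.46 for the 2 with the core and 1.48 for the 2 without it, OAS1 (0.54) and RSAD2 (2.42). All 4 of these members held GAAANGAAA. A link between the core and the ratios was not tested.

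**Figure D5:**
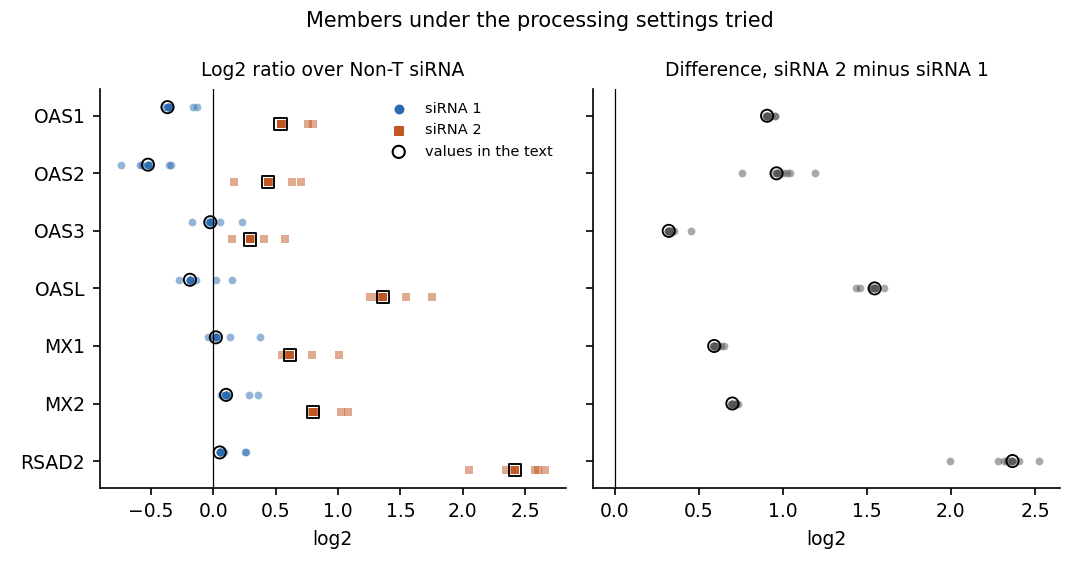
Each member (y axis) under the processing settings tried: log2 ratio over Non-T siRNA with siRNA 1 (circles) and siRNA 2 (squares) on the left, and the difference of siRNA 2 minus siRNA 1 on the right (x axes, log2), with the values given in the text ringed. The difference stayed above 0 for every member under every setting, from 0.32 for OAS3 to 2.52 for RSAD2, whereas the siRNA 1 values of OAS3, OASL and MX1 lie on both sides of 0.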

How the data were processed

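The authors scanned the arrays with Agilent Feature Extraction 9.5.1.1 and deposited, for each spot, the intensity and local background in both channels, with probe positions on hg18. They also deposited a table of log2 ratios, for which the methods name loess with agilp; it was used as an alternative only. Its ratios run as Cy5 over Cy3 (Pearson r 0.958 and 0.970 across spots with ratios recomputed from median spot signals; medians -0.0054 and -0.0069).

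Mean spot signals were corrected by normexp (offset 50) and normalized by loess (span 0.3) within each array in limma 3.58.1 under R 4.3.3. Outlier spots were left out (112 and 100), and each probe's remaining spots were averaged. Only probes with at least 0.5 of their spots well above background in Cy3 or in Cy5, on each of the arrays, went further (25673 of 41000). The brightest probe stood for a gene. Of 19218 genes, 13129 were named through a RefSeq table and 6089 by the files. Per-channel signals were taken after Aquantile.

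A changed gene had an absolute fold change of 2, as in the methods of the study, which used no test. The mean over both siRNAs was tested with limma. A probe not well above background in a channel on an array is given as "at least" a fold, set against the lowest signal well above background there. The named genes were all members, SUB1, ACTB, GAPDH, fixed names from each pathway list, and the 5 genes nearest to RSAD2 and to the members' median. Members and lists were chosen with earlier results of these data known. Promoter sequences are from RefSeq (GRCh38.p14). Some genes and 1 motif search that the rules name are not reported here.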

Additional observations from a re-analysis of the deposited data

Results flagged for a closer look

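For 4 members, the siRNA 1 array lay below 0 and the siRNA 2 array above 0 by the brightest probe. The dimmer probes of OAS2 (-0.66 and -0.11) and OAS3 (-0.31 and -0.0014) were below 0 on both arrays. For the brightest probes, the log2 ratios differed by 1.55 for OASL, 0.96 for OAS2, 0.91 for OAS1 and 0.32 for OAS3, siRNA 2 minus siRNA 1. With 1 array per siRNA these differences were not tested. The siRNA 1 value of OAS3 was -0.024, and those of OASL and OAS3 were above 0 when arrays were centred on the median in place of loess (0.15 and 0.23), so that for these genes the change of sign depends on the normalization.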

How the results depend on the processing

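Of 259 values and counts of members under the alternatives, 214 stayed within the limit set for them and 45 moved beyond it. For values the limit was a spread, and for counts it was a ratio of the counts. Keeping outlier spots, dropping the filter on dim probes and making it stricter left every member value as it was. All member probes pass with either filter, so the 214 include values that could not move. The difference between the siRNAs was above 0 for all 7 members under all alternatives, and no member was at least 2-fold changed with siRNA 1 under any of them. Median centring in place of loess gave a members' median of 0.23 with siRNA 1 and 1.01 with siRNA 2, 4 members at least 2-fold higher with siRNA 2, and medians of 0.21 and 0.92 for the other interferon-stimulated genes, where the median of all genes was 0.13 and 0.12. Averaging all probes of a gene gave a members' median of -0.17 with siRNA 1 and 0.76 for the difference, and turned the mean ratio of OAS3 to -0.0094. The authors' log2 ratios gave a members' median of 0.79 with siRNA 2. The mean ratio of OAS2 became 0.14 with centring and 0.19 with the authors' ratios.

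Over all genes, 40 were at least 2-fold higher and 117 lower with siRNA 1, and with siRNA 2 these counts were 118 and 205; higher genes made up 25.5% and 36.5% of those called. Median centring gave 137 and 56 with siRNA 1 and 266 and 101 with siRNA 2 (71.0% and 72.5% higher), and the processed signals of the scanner software 778 and 298, and 994 and 474 (72.3% and 67.7% higher). On both arrays, 10 genes passed as higher and 27 as lower, beside 44 and 10 with centring and 329 and 95 with the processed signals, and 18 were higher in the authors' ratios, which put 36.7% and 47.4% of the called genes higher. In limma, 1 gene was lower at the threshold and 0 with no background correction, median signals, processed signals, centring or the authors' ratios (4077, 4023, 3902, 5707 and 4141 genes at an unadjusted p under 0.05). Adjusted p-values of members ran from 0.106 to 0.971 over the alternatives. No paired analysis was possible because each siRNA has 1 array, and leaving out an array leaves no spread to test. Signal over background limits IFNB1 and DHX58.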
